A study of Mus musculus with 6 samples.

Results

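The 9 genes described here encode proteins of the myelin sheath or of oligodendrocytes that are about to form it: *Mbp*, *Mog*, *Mag*, *Cnp*, *Mobp*, *Opalin*, *Cldn11*, *Bcas1* and *Ermn*. They were chosen by name, and all 9 occurred among the 32049 target genes of 2 tables of predicted enhancer-promoter connections, 1 for Ctr-OPCs and 1 for IFN-γ-OPCs. Both came from oligodendrocyte precursor cells (OPCs) of mouse brain grown in primary culture, of the genotype Sox10-Cre/RCE, a cross in which Cre under the control of *Sox10*, active in the oligodendrocyte lineage, switches on a GFP reporter. The labels give the strain as C57BL/6j, while by the methods the reporter parents were of a mixed background with CD1. Ctr-OPCs stayed in proliferation medium with bFGF and PDGF-AA, and IFN-γ-OPCs received the same medium with 100 ng/mL IFN-γ from 24 h after passaging, so the growth factors that hold cells in the precursor state were present in both. Brains of several early postnatal pups were pooled for each culture, and OPCs were taken either by their Sox10-GFP signal or with CD140a beads. H3K27ac-HiChIP, which captures chromatin contacts of regions carrying an active histone mark, was made from 3 libraries per condition. The contacts were used with ATAC-seq and H3K27ac CUT&RUN signal in the activity-by-contact (ABC) model.

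Oligodendrocytes wrap axons in layers of membrane, and the proteins of this wrap are made in quantity only after a precursor has stopped dividing and begun to differentiate. MBP holds the cytoplasmic faces of the membrane together, MOG sits on the outermost surface and is an antigen used to induce experimental autoimmune encephalomyelitis, and MAG faces the axon. Dividing OPCs stand before this step. Each table pools its 3 libraries. No value below has a replicate error, no p-value could be computed, and the depth behind each value is unknown.

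In the ABC model the contribution of an element to a gene is its activity (a signal from open chromatin and H3K27ac) times its contact with the promoter. The ABC score is this product as a share of the gene's total, which sums such products over the elements around it. A connection was a pair of element and gene with a score above 0.05. No element classed as a promoter is listed, so contacts between promoters of different genes are not among the connections. The highest-scoring 500 bp elements of *Mog*, *Cldn11*, *Ermn* and *Bcas1* are shown because they carried the strongest connection of the first 3 genes in both conditions and the connection that *Bcas1* had in IFN-γ-OPCs only. The central 300 bases of each element are given 5′ to 3′ on the plus strand of mm10 (GRCm38). Capitals mark letters that match, on either strand, a short motif of a factor of this lineage or of the interferon response: ACAAT or ACAAAG (SOX factors), CAGCTG or CATATG (E-boxes bound by OLIG2), CTGGNAC (MYRF), GGAATG (TEAD), TTCNNNGAA (GAS, the STAT site), TGANTCA (AP-1) and the core of the ISRE, the interferon-stimulated response element.

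The *Mog* element is intergenic and lies upstream of the gene (window chr17:37028704-37029003), with no match inside the window.
Mog element: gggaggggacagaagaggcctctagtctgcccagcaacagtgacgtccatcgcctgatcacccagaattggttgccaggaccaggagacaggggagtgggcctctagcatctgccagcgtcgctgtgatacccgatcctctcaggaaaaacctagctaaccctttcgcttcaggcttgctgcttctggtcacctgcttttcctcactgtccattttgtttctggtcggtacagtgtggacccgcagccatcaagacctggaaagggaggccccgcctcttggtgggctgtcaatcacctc
The *Cldn11* element is intergenic and lies downstream of the gene (window chr3:31166458-31166757), with ACAAT 3 times and GGAATG once.
Cldn11 element: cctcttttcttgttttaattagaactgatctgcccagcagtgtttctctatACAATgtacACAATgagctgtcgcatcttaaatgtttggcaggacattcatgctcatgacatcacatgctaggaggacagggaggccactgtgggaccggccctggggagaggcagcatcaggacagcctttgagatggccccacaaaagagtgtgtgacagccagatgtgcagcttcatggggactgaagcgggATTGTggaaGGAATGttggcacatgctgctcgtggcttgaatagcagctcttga
The *Ermn* element is intergenic and lies just upstream of the gene (window chr2:58055453-58055752), with ACAAT at 1 place and both E-box forms at 1 place each.
Ermn element: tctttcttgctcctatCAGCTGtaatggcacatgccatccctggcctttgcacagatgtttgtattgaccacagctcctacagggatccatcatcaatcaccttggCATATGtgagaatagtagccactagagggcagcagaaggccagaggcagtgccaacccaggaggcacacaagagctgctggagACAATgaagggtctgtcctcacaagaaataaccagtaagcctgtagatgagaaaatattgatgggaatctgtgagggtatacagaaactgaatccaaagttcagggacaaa
The *Bcas1* element overlaps a coding exon of the gene and an exon of the non-coding gene *Bcas1os1* (window chr2:170406483-170406782), with CAGCTG at 2 places and ACAAAG and CTGGNAC at 1 place each.
Bcas1 element: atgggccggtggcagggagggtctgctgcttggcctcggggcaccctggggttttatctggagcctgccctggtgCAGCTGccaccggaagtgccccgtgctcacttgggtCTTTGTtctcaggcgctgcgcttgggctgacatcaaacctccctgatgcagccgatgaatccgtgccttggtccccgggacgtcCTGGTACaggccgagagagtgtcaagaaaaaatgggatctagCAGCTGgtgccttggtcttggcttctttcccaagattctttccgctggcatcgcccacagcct

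These matches were frequent among all elements. Of the 500 bp elements of the tables, 16 in each condition had a gene of the set as target. ACAAT occurred in 10 of 16 in Ctr-OPCs against 11 of 16 in IFN-γ-OPCs, beside 50.5% and 52.9% of all 500 bp elements of these tables. CAGCTG occurred in 8 of 16 in each condition, beside 39.9% and 37.7%. The MYRF motif CTGGNAC, named for the factor that switches on myelin genes, occurred in 2 of 16 elements without IFN-γ and 6 of 16 with it, beside 34.0% and 33.7% of all. The genome sequence is the same in both conditions, so these counts differ through which elements were listed and where their bounds lay. The downstream *Cldn11* element held no CTGGNAC at its bounds in Ctr-OPCs and 1 at its bounds in IFN-γ-OPCs. The STAT motif TTCNNNGAA was held by 2 and 3 of 16 (14.6% and 15.7% of all), and the ISRE core by none and 1 (5.86% and 9.57% of all). The whole 500 bp *Mog* element held ACAAT and CAGCTG once each, both outside the printed window. A match describes the letters and does not show that a factor is bound.

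Connections were found for 4 of the 9 genes. The share of all listed genes with a connection is not given here, so this count is not read as particular to the set. Of 25 pairs listed without IFN-γ and 28 with it, 5 were connections in each condition, beside 17.5% and 17.4% of all pairs, so that the share of the set was close to that of all genes. *Cldn11* had 2 connections in both, *Mog* had 1 in both, *Ermn* had 2 without IFN-γ and 1 with it, and *Bcas1* had none in Ctr-OPCs and 1 with IFN-γ. The remaining 5 genes, *Mbp*, *Mag*, *Cnp*, *Mobp* and *Opalin*, had no connection in either condition. With the power-law score, in which contact is computed from distance alone, the set had 12 pairs above 0.05 without IFN-γ and 11 with it, and *Mbp*, *Cnp* and *Opalin* then had such pairs in both conditions. Thus 1 of 9 genes had more connections with IFN-γ, beside 14.9% of all listed genes, and 1 of 9 had fewer, beside 13% of all. An overlapping connection of the same gene existed in the other condition for 4 of 5 in each direction, that is 80%. The exact Clopper-Pearson 95% confidence interval is 28.4 to 99.5 and covers counting error only. It takes the 5 connections as independent, although *Cldn11* had 2 of them in both conditions, so no difference from other shares is read from it. Of all connections the same held for 49.5% without IFN-γ and 46.3% with it.

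**Figure D1:**
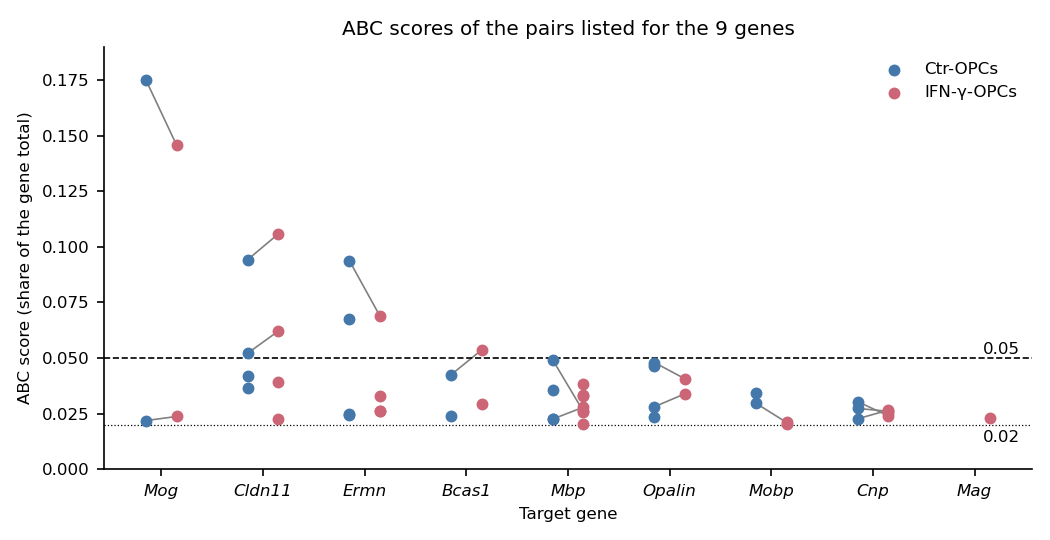
ABC score (y axis, share of the gene total) of every listed pair of the 9 genes (x axis), blue for Ctr-OPCs and red for IFN-γ-OPCs, with grey lines joining pairs matched between the conditions. The dashed line is the cut-off for a connection (0.05) and the dotted line the lowest score listed (0.02). *Mog* holds the highest score in both conditions, 0.175 and 0.146, and 5 genes stay under the dashed line throughout.

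*Mog* had the highest score of the set. Its upstream element (chr17:37028604-37029103 in Ctr-OPCs) lay 5.46 kb from the start site, between *Mog* and *Gabbr1*, which encodes a GABA-B receptor subunit. The score was 0.175 in Ctr-OPCs and 0.146 with IFN-γ. Element activity was 4.41 and 3.17, a log2 ratio of −0.48, while the adjusted contact (contact plus the pseudocount of the model) was 0.0395 and 0.0450. Activity was therefore the lower term and contact the higher one. The same element was listed with 10 other genes in Ctr-OPCs, of which *Gabbr1* and the pseudogene *H2-M6-ps* were connected, and with 8 others in IFN-γ-OPCs, of which *Gm22388* was connected. *Mog* was thus the gene with a connection to this element in both conditions.

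The only other pair of *Mog* was a distant one with no measured contact. The element (chr17:39845261-39845975) lay 2822 kb away in an exon of the non-coding gene *Gm26917*. Its contact with *Mog* was 0 in both conditions, and the pair passed the score limit through an activity of 43.7 in Ctr-OPCs against 46.5 in IFN-γ-OPCs, where the median over all elements was 0.866 and 0.803. This element was listed for 65 genes in Ctr-OPCs, with a contact of 0 in 59 of its pairs, and for 67 genes in IFN-γ-OPCs, with a contact of 0 in 61. The pair therefore carries no contact information about *Mog*.

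*Cldn11*, which encodes the tight junction protein claudin-11 of myelin, had 2 connections that were found in both conditions. The downstream element (chr3:31166358-31166857), 16.7 kb from the start site, scored 0.0943 without IFN-γ and 0.106 with it. Its activity was 5.34 and 5.98, the highest of the set in both conditions apart from the distant *Mog* element, and its adjusted contact was 0.0121 in both. The upstream element (chr3:31145888-31146730), 3.61 kb from the start site, scored 0.0522 and 0.0621, with an activity of 1.20 and 1.13. Both scores were higher in IFN-γ-OPCs, the first with a higher activity and the second with a higher contact (0.0298 and 0.0374). In IFN-γ-OPCs the downstream element was also connected with *Slc7a14* and *Mir7008*. *Slc7a14* was listed for it in Ctr-OPCs too, below the cut-off.

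*Ermn* encodes ermin, an actin-binding protein of the oligodendrocyte cytoskeleton. Its near upstream element (chr2:58055353-58055852), 2.74 kb from the start site, was connected in both conditions, with a score of 0.0938 in Ctr-OPCs and 0.0689 with IFN-γ. Activity was 1.13 and 0.992, and adjusted contact 0.0265 and 0.0288. Their product was nearly equal (0.0299 and 0.0286), and the lower share went with a higher gene total (0.318 and 0.415). The connection seen only in Ctr-OPCs was a distant one. It joined *Ermn* to an element in an intron of *Acvr1*, a BMP type I receptor gene (chr2:58484115-58485109), 432 kb away, with a score of 0.0675 and an activity of 0.921. No overlapping element was listed in IFN-γ-OPCs. *Ermn* supplied 3 of the 4 pairs of the set over 200 kb in Ctr-OPCs against 2 of 3 in IFN-γ-OPCs, and the others were the *Mog* pair without contact. No pair of *Ermn* over 200 kb was matched between the conditions. The difference in connections of *Ermn*, −1 from Ctr-OPCs to IFN-γ-OPCs, was 0 over all listed pairs and above a score of 0.1, and turned to 1 with a power-law score above 0.05.

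*Bcas1*, a marker of oligodendrocytes that have just begun to myelinate, crossed the cut-off at 1 element. The element (chr2:170406383-170406882) lies 21.2 kb inside the gene and scored 0.0425 without IFN-γ and 0.0536 with it. Its activity was 4.20 and 3.89, lower with IFN-γ, and its adjusted contact was 0.0137 and 0.0167, higher with IFN-γ. *Bcas1os1*, a non-coding gene that overlaps the same element, was connected with it in both conditions. The gain of a connection by *Bcas1* was thus a move from just under to just over 0.05 at an element listed in both tables, and the difference was 0 above a score of 0.1, over all listed pairs or with a power-law score above 0.05.

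The compact myelin genes *Mbp* and *Mobp* stayed below the cut-off. *Mbp* had 4 pairs in Ctr-OPCs and 7 with IFN-γ. The highest score of *Mbp* was 0.0491 in Ctr-OPCs, just under the cut-off, for an intergenic element 12.9 kb upstream of the listed start site. This element scored 0.0261 in IFN-γ-OPCs, with an activity of 2.20 and 1.59 and an adjusted contact of 0.0252 and 0.0164. In IFN-γ-OPCs the highest score of *Mbp* was 0.0384, for an intronic element 4.84 kb downstream of the start that had no overlapping element in the Ctr-OPC table. The sum of the listed scores of *Mbp* was 0.130 in Ctr-OPCs against 0.204 in IFN-γ-OPCs. Of its pairs, 2 were matched between the conditions.

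The start site that the tables use for *Mbp* is not the one of most annotated transcripts. It is the upstream start, shared by 3 basic transcripts of the annotation, which give rise to the Golli proteins. The other 11 basic transcripts, which include those of the classic myelin basic proteins, start 79.3 kb further downstream. Measured from that downstream start, an intronic element matched between the conditions lay 16.2 kb upstream, with a score of 0.0225 without IFN-γ and 0.0278 with it and an activity of 2.64 and 2.42. Another element, 4.77 kb upstream of the downstream start, had the highest activity of any *Mbp* element in Ctr-OPCs, 3.09, and was listed for *Mbp* with a score of 0.0223. In IFN-γ-OPCs the overlapping element had an activity of 2.41 and was not listed for *Mbp*. With the activity of IFN-γ-OPCs, the contact of Ctr-OPCs and the gene total of IFN-γ-OPCs, its expected score was 0.0197, just under the limit of 0.02. Contacts of these elements with the downstream start itself are not listed in the tables.

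**Figure D2:**
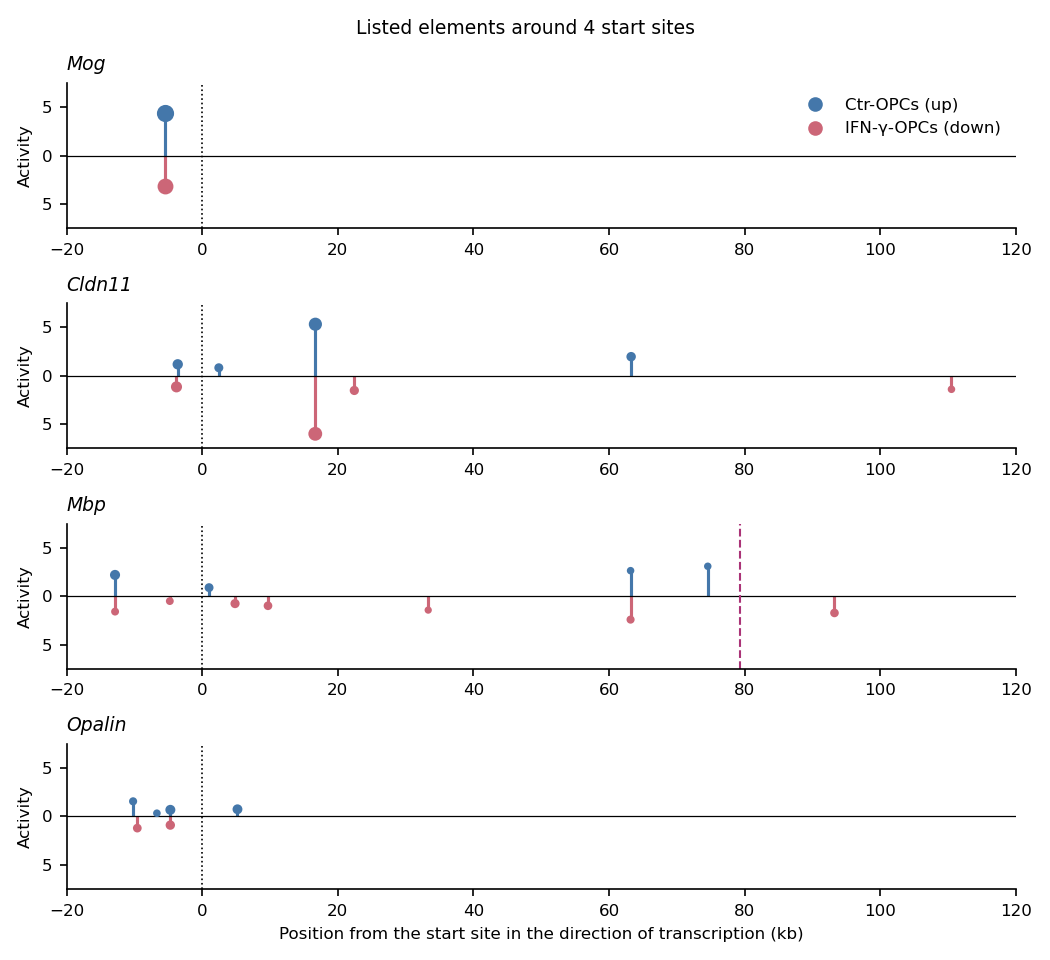
Listed elements within 120 kb of the start sites of *Mog*, *Cldn11*, *Mbp* and *Opalin*, by position from the start site in the direction of transcription (x axis, kb) and element activity (y axis, signal, drawn up for Ctr-OPCs in blue and down for IFN-γ-OPCs in red), with point area in proportion to the ABC score. The dotted line is the start site of the tables and the dashed line the downstream start of *Mbp*, 79.3 kb away. *Mog* has 1 element and *Cldn11* a tall one at 16.7 kb in both conditions, while most *Mbp* elements are drawn on one side only.

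*Mobp* encodes another basic protein of compact myelin and had 2 pairs in each condition. An intergenic element 8.84 kb upstream was matched, with a score of 0.0296 in Ctr-OPCs and 0.0210 with IFN-γ. Its activity was nearly equal (0.746 and 0.721), whereas the adjusted contact was 0.0517 and 0.0318, a log2 ratio of −0.70. The element with the highest score in Ctr-OPCs (0.0341), 5.30 kb upstream, was still listed in IFN-γ-OPCs with other genes, with an activity of 0.406 instead of 0.859. An element in an intron of *Gm38642*, 41.6 kb downstream, joined *Mobp* in IFN-γ-OPCs with a score of 0.0204. Its activity was 1.83 in Ctr-OPCs against 3.58 in IFN-γ-OPCs, and it was listed there with 8 other genes.

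*Opalin*, which encodes a membrane glycoprotein specific to oligodendrocytes, had 4 pairs without IFN-γ and 2 with it. All of its elements lay within 10.2 kb of the start site. The intergenic element 4.70 kb upstream scored 0.0480 in Ctr-OPCs and 0.0407 with IFN-γ, and the element 10.2 kb upstream (9.58 kb in IFN-γ-OPCs), in the neighbouring gene *Tll2*, scored 0.0280 and 0.0339. Activity and contact moved in opposite ways at both: activity was higher and adjusted contact lower at the first (log2 ratios of 0.38 and −0.64), and activity lower and contact higher at the second (−0.38 and 0.63). Another element, in a coding exon of *Opalin* 5.20 kb from the start, scored 0.0463 in Ctr-OPCs and had no overlapping element in the other table.

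*Cnp*, which encodes the cyclic nucleotide phosphodiesterase of non-compact myelin, had the highest promoter activity quantile of the set in both conditions (0.871 and 0.836) and low scores throughout. The promoter activity quantile ranks the promoter of a gene among all genes of the condition. *Cnp* had 3 pairs in Ctr-OPCs against 4 in IFN-γ-OPCs, all with scores of 0.0226 to 0.0303. The 3 pairs of Ctr-OPCs were matched, and their activity was lower in IFN-γ-OPCs at each, with log2 ratios of −0.10, −0.36 and −0.41. The gene total of *Cnp* was the largest of the set (2.02 and 1.71), so that a given product of activity and contact makes a smaller share of it than for *Ermn*.

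The gene total could be recovered in both conditions for 8 of the genes. It was lower in IFN-γ-OPCs for 7 of 8, beside 64.3% of all 20321 genes, and relative to the median of all genes, −0.07, it was lower for 4 of 8: *Mbp*, *Cnp*, *Mobp* and *Bcas1*. None of the 8 was at least 1.5-fold higher or lower, as 0.615% and 0.118% of all genes were. The log2 ratios ran from −0.25 (*Mobp*) and −0.24 (*Cnp*) through −0.18 (*Mbp*), −0.16 (*Bcas1*), −0.03 (*Mog*), −0.02 (*Opalin*) and −0.00 (*Cldn11*, 0.684 and 0.682) to 0.38 (*Ermn*), with a median of −0.09. *Ermn* alone lay near the edge of all genes, above 97.25% of them. The central 95% of all genes spanned −0.33 to 0.40.

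**Figure D3:**
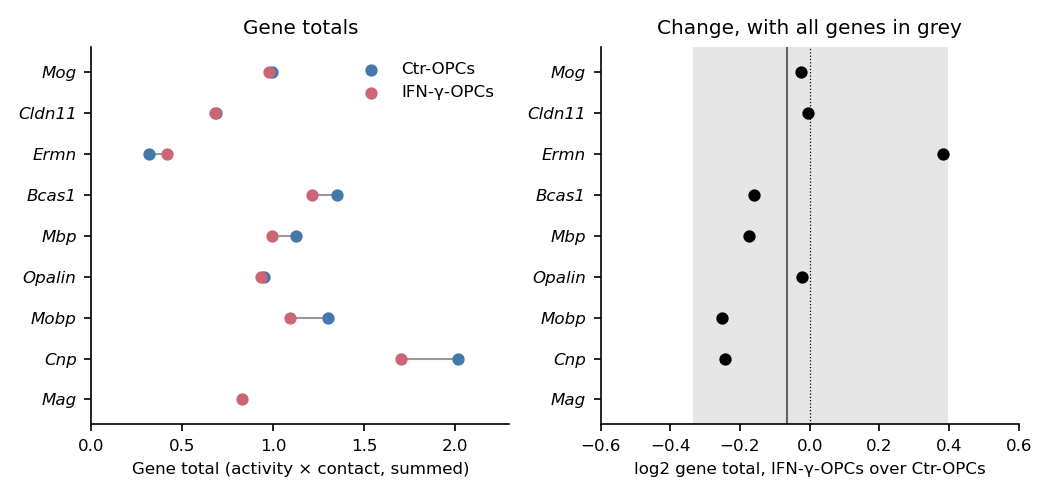
Left, gene total (x axis, summed activity times contact) of each gene (y axis), blue for Ctr-OPCs and red for IFN-γ-OPCs, with *Mag* present in IFN-γ-OPCs only. Right, log2 ratio of the totals, IFN-γ-OPCs over Ctr-OPCs (x axis), with the median (grey line) and central 95% (grey band) of all 20321 genes in both tables. All 8 genes lie within the band, *Ermn* close to its upper edge at 0.38.

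Promoter activity moved without one direction. The quantile was higher in IFN-γ-OPCs for *Bcas1* (0.532 and 0.665), *Ermn* (0.646 and 0.734) and *Mobp* (0.636 and 0.710). It was lower for *Opalin* (0.739 and 0.633), *Cnp*, *Mbp* (0.793 and 0.773) and *Cldn11* (0.779 and 0.764), and 0.701 in both conditions for *Mog*. Over all genes in both tables, the central 95% of changes was −0.179 to 0.181. In pooled cultures, a change in the share of cells with an active promoter and a change in activity per cell cannot be told apart.

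Over the 14 pairs matched between the conditions, in 8 genes, activity was mostly lower with IFN-γ, as over all pairs. It was lower in IFN-γ-OPCs for 11 of 14 pairs, beside 59.9% of all 29858 matched pairs, with a median log2 ratio of −0.12 beside −0.09 over all pairs, and of −0.01 once each table was divided by its own median activity. None of the 14 was past 1.5-fold higher or lower, where 7.48% and 11% of all pairs were. A matched pair has to reach the score limit in both tables, and a change in activity bears on that. Of the 11 pairs that did so in 1 table only while their element was listed in both, 2 elements were past 1.5-fold higher with IFN-γ, beside 11.5% of all such pairs, and 2 past 1.5-fold lower, beside 11.8%. The higher ones were those of *Mobp* in the *Gm38642* intron (log2 ratio 0.97) and of *Mbp* (activity 1.14 and 1.73). The lower ones were those of *Mobp* 5.30 kb upstream (−1.08) and of *Ermn* 936 kb away (activity 3.31 and 2.00). Adjusted contact was lower for 5 of 14 pairs, beside 44% of all, and equal for the distant *Mog* pair, at which it was the pseudocount alone. It was at least 1.5-fold higher for 1 pair, of *Opalin*, beside 12% of all, and at least 1.5-fold lower for 3 pairs, of *Opalin*, *Mobp* and *Mbp*, beside 8.33% of all. Contact was read at 5 kb bins, so near elements of a gene can share a value. The labels name the same contact file for the libraries of both conditions. The contact values of the tables differ, but how contacts were divided between the conditions is not given, so these ratios are those of the tables.

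**Figure D4:**
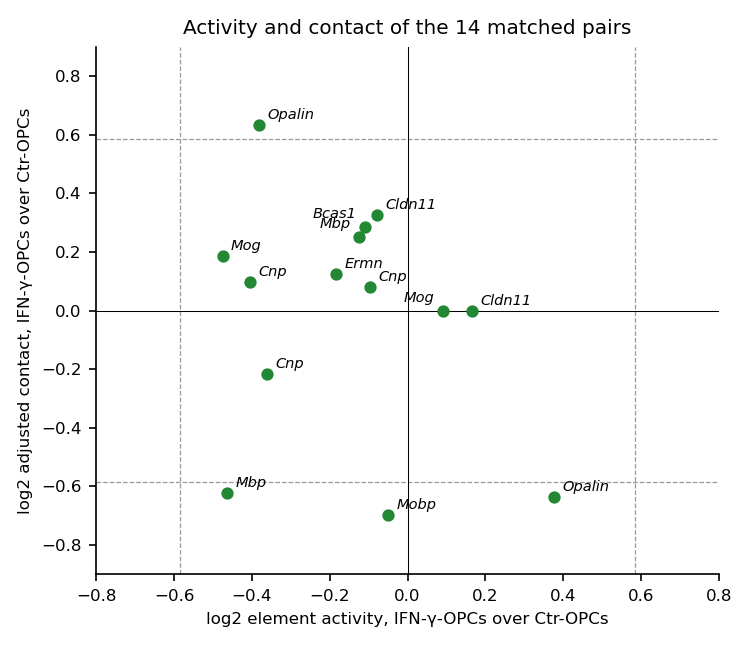
Log2 ratio, IFN-γ-OPCs over Ctr-OPCs, of element activity (x axis) and of adjusted contact (y axis) for the 14 matched pairs, each named by its target gene, with dashed lines at 1.5-fold. All points lie between the vertical dashed lines, and 4 lie outside the horizontal ones: 1 *Opalin* pair above, and 1 pair each of *Opalin*, *Mobp* and *Mbp* below.

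Of the pairs of the set, 14 were found in both tables and 25 in 1 table only. That is, 11 of 25 without IFN-γ and 14 of 28 with it had no match, beside 55.2% and 58.2% of all pairs. For 6 of the 11 and 8 of the 14, no overlapping element was listed in the other table with any gene. Over all genes, 36779 pairs of Ctr-OPCs and 41620 of IFN-γ-OPCs had no match, and 37430 of these together had an overlapping element in the other table. For the remaining 5 and 6 pairs of the set the element was listed with other genes. The expected score of the pair was computed from the activity and gene total in the other table. It was below the limit of 0.02 for all 5 pairs of Ctr-OPCs and for 2 of the 6 of IFN-γ-OPCs, and above it for 4 of the 6. For 4 of the 5 pairs of Ctr-OPCs and all 6 of IFN-γ-OPCs the contact was that of the pair's own condition, since that of the other condition is not listed. Contact of the other condition entered for 1 pair of Ctr-OPCs only. The median distance of the pairs of the set was 10.2 kb in Ctr-OPCs and 11.3 kb with IFN-γ, beside 15.1 and 15.8 kb over all pairs.

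*Mag* was the gene of the set that was absent from a table, that of Ctr-OPCs, as were 19.6% of all listed genes. In IFN-γ-OPCs it had 1 pair, with an element in an intron of *Mag* itself (chr7:30913307-30914031), 1.20 kb from the start site, at a score of 0.0230. The activity of this element was 0.341, and no overlapping element was listed in Ctr-OPCs. The tables hold no gene whose promoter quantile is under 0.4 and only pairs with a score of at least 0.02. The quantile of *Mag* was 0.687 in IFN-γ-OPCs, well above its limit, whereas its score was close to the other limit. Among other genes of the IFN-γ-OPC table, 23.6% were absent from the Ctr-OPC table. Of those with a quantile within 0.05 of that of *Mag*, 32.8% of the 586 with a top score under 0.025 were absent, beside 7.18% of the 1810 with a top score above 0.05. Near the other limit, 47.2% of the 813 genes with a quantile under 0.45 and a top score above 0.05 were absent.

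Other genes of the nearby element give no firm score for *Mag* in Ctr-OPCs. In Ctr-OPCs 1 element was listed within 20 kb of the *Mag* start (chr7:30925300-30926144, activity 0.316), and in IFN-γ-OPCs there were 3. Its targets in Ctr-OPCs were *Hamp2*, with a score of 0.0459, and *Gm44662*, whose start lies near that of *Mag*, with a score of 0.025 and a quantile of 0.702. Given the contact of *Gm44662* and the gene total of *Mag* in IFN-γ-OPCs, the expected score of *Mag* was 0.0263, above the limit, and with contact from the power law of distance it was 0.0096, below it. The scores computed for this element thus lay on both sides of the score limit. With the power law, 2 other elements, 197 and 625 kb away, had expected scores above it (0.0225 and 0.0251). Its quantile in Ctr-OPCs is not given, and would have to be lower than that in IFN-γ-OPCs by more than 0.287 to fall under the other limit. Which limit kept *Mag* out of the Ctr-OPC table cannot be told apart from these values.

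Another 34 genes of myelin and of maturing oligodendrocytes were also chosen by name. Of these 32 were listed, 26 of them in both tables, with 19 connections without IFN-γ and 21 with it. More connections with IFN-γ were found for 5 genes (*Tspan2*, *Gpr37*, *Anln*, *Enpp6* and *Trf*) and fewer for 3 (*Cd9*, *Gsn* and *Gal3st1*), beside 14.9% and 13% of all listed genes. The gene total was lower in IFN-γ-OPCs for 21 of 26, beside 64.3% of all genes, with a median log2 ratio of −0.08, and none was past 1.5-fold. The highest ratios were those of *Car2*, a carbonic anhydrase (0.49), *Cd9*, a tetraspanin (0.07), and *Ugt8a*, an enzyme of galactolipid synthesis (0.04). The lowest were those of the receptor gene *Gpr37* (−0.38), the actin-severing *Gsn* (−0.33) and the deacetylase gene *Sirt2* (−0.22). *Hapln2*, *Cntn2*, *Aspa* and *Elovl1* were absent from the Ctr-OPC table and had no connection in IFN-γ-OPCs. *Tubb4a* and *Nfasc*, absent from the IFN-γ-OPC table, had none in Ctr-OPCs.

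The label of the cells was read from the promoter quantiles of marker genes, since the tables hold no expression. The 6 OPC markers (*Pdgfra*, *Cspg4*, *Ptprz1*, *Olig1*, *Olig2* and *Sox10*) were all listed in both conditions, with quantiles of 0.851 to 0.982 in Ctr-OPCs and 0.815 to 0.994 in IFN-γ-OPCs. The quantiles of the set ran from 0.532 to 0.871 and from 0.633 to 0.836, and overlapped with those of the OPC markers through *Cnp* alone. Of 5 microglia markers, 3 were listed in Ctr-OPCs and all 5 in IFN-γ-OPCs, with median quantiles of 0.621 and 0.625. Of 5 astrocyte markers 4 were listed in each condition (medians of 0.696 and 0.631). Of 3 endothelial markers 1, *Cdh5*, was listed in Ctr-OPCs (0.728) and all 3 in IFN-γ-OPCs (median of 0.466, with *Cdh5* at 0.647). The microglia and endothelial values are thus over different genes in each condition. All 4 neuronal markers were listed in both (medians of 0.810 and 0.771). The part of other cell types in the values of the myelin genes was not tested.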

How the data were processed

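H3K27ac-HiChIP was performed on 6 libraries of cultured mouse OPCs, 3 per condition, grouped by the treatment in the library titles. According to the methods, HiC-Pro (version not given in the sources used here) mapped the reads to mm10 and removed duplicates, and the ABC model was run per condition with default parameters for candidate elements and activity, on ATAC-seq and H3K27ac CUT&RUN alignments and contacts in 5 kb bins. The labels give the same table for the 3 libraries of a condition: the authors pooled the replicates, and none can be omitted.

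The authors computed element activity, a signal, from coverage in ATAC-seq and H3K27ac CUT&RUN. The deposited ABC score is a fraction of the gene's total. Contact, adjusted contact, their products with activity, the power-law score and the promoter quantile were used as deposited, as plain score values. The labels name 1 contact file for both conditions, and whether contacts were pooled over conditions is not given in the sources used here. How activity and contact were scaled between the conditions is not given in the sources used here, so differences that run through a whole table cannot be told apart from scaling. No element classed as a promoter is listed, neither that of the target gene itself nor that of another gene. As tested on the tables, the lowest score listed is 0.02 and the lowest promoter quantile is 0.4. These limits remove weak pairs and genes from 1 table independently of the other. The shorter tables and the pair lists in browser format held the same pairs and were not used.

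Pairs were matched as mutual best overlaps (at least 1 bp, same target gene), and calls of change used 1.5-fold. Gene totals were obtained by dividing the activity-contact product of each pair by its score and taking the median per gene. Expected scores of missing pairs used the activity and gene total of the other table and the contact of the same pair of 5 kb bins there, or of its own table where no such pair was listed. For *Mag*, the gene total was that of IFN-γ-OPCs and the contact that of the nearest listed start site. Symbols and annotation came from GENCODE M21 and sequences from the GRCm38 assembly of RefSeq. Positions count from 1. The software was samtools 1.23.1 and matplotlib 3.10.9, with SciPy 1.17.1, NumPy 2.4.6, pandas 2.3.3 and Python 3.11.15. When tested on simulated data, a copy of the Ctr-OPC table with known changes, 193 of 193 genes with a changed total were recovered. Among the 24915 genes, 0 unchanged genes were called. Because the copy was made from the Ctr-OPC table itself, these counts cover the calculation only. Error between separately processed tables was not tested.

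The members, gene lists, motifs and markers were chosen with earlier results of these data known. Named genes were the 9 members, other targets of their elements, the markers and, from the other myelin genes, the 3 highest and 3 lowest in gene total among those in both tables and those absent from 1 table. From that list, 2 genes are not reported here and were left out of its counts. Alternatives changed the score cut-off, the contact model, the matching rule and the scaling.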

Additional observations from a re-analysis of the deposited data

How the results depend on the processing

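No value has a replicate error, so a shift is read only against the size of the value itself. Over all deposited pairs in place of the cut-off of 0.05, the genes of the set had 25 pairs without IFN-γ and 28 with it, 3 genes gaining and 1 losing. Above 0.1 there were 1 and 2, with 1 gene gaining and 0 losing. With a power-law score above 0.05 there were 12 and 11, with 1 gaining and 2 losing, and *Ermn* turned from −1 to 1. With equal numbers of top-scoring pairs the counts were unchanged. The gain of *Bcas1* became 0 over all pairs, above 0.1 and with the power law. The gene that gained was *Cldn11* above 0.1 and *Ermn* with the power law, where *Cldn11* and *Opalin* were the genes that lost. The shared portion of connections, 80% each way, was 56% and 50% over all pairs, 100% (1 of 1) and 50% (1 of 2) above 0.1, and 75% and 81.8% with the power law, and the matching rule did not move it.

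Over matched member pairs, the median log2 ratio for activity was −0.11 both over connections and at a reciprocal overlap of 50%, and −0.0090 after dividing by the table median. That of adjusted contact was 0.19 over connections, 0.080 at a reciprocal overlap of 50%, 0.057 after dividing by the table median and 0.10 before the pseudocount. The median log2 ratio of the gene total was −0.026 after subtracting the median of all genes, and *Mog*, *Opalin* and *Cldn11* then had ratios of 0.04, 0.04 and 0.06. For *Mag* in Ctr-OPCs, of 44 elements within 1000 kb, 43 had an expected score of at least 0.02 with the contact of the nearest listed start site at any distance, 2 with the power law, and 1 where, by a limit chosen after seeing the data, that site had to lie within 10 kb. The cause of these shifts was not tested.

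No paired analysis was possible because the 3 libraries of each condition are pooled in 1 table, and for the same reason no library was left out. Depth is unknown from these tables.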
